A study of Caenorhabditis elegans with 12 samples.

Results

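Base excision repair removes damaged or wrong bases from DNA one at a time. A DNA glycosylase cuts the base from its sugar, an AP endonuclease nicks the strand at the empty site, and a flap nuclease and a ligase finish the repair around the sliding clamp PCNA, while poly(ADP-ribose) polymerases bind the open break. The 10 genes described here, of 46589 with counts, were named one by one by their sequence names in the count files, by a rule that uses no measured value, though the set was proposed with earlier results of these data known. They are the glycosylases ung-1 and nth-1, the dUTPase dut-1, the AP endonucleases exo-3 and apn-1, the poly(ADP-ribose) polymerases parp-1 and parp-2, and the DNA synthesis factors pcn-1, crn-1 and lig-1. Of these, dut-1 acts on the nucleotide pool before repair and pcn-1 encodes a clamp with no enzyme activity of its own. The genes pcn-1, crn-1 and lig-1 also serve DNA replication, which in an adult worm takes place mainly in the germline.

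RNA was sequenced from whole Caenorhabditis elegans at day 1, with about 5000 worms from 3 plates in each of 12 libraries. Each of 4 backgrounds was read with no tau, with the tau aggregate strain BR5270 and with the anti-tau-aggregate strain BR5271. The backgrounds were wild type (N2) and the Ung-1 mutant at 22 °C, and wild type (N2) and the Nth-1 mutant at 20 °C; the mutant tau libraries came from crosses with the tau strains. BR5270 and BR5271 are known to make a fragment of human tau in neurons, prone to aggregate in the first and changed to resist aggregation in the second, so most cells of the body carry no tau. The labels do not name the mutant alleles. There was 1 library per combination, so the spread behind each p-value is the part of 12 libraries that background and tau state did not explain, and the variation between cultures of 1 strain was not measured. Mutated gene, temperature and library set changed together, so the 2 mutants were compared each with the wild type of its own temperature.

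All 10 genes passed the filter on low counts, with between 82 and 14322 counts in a library, out of library totals of 15124127 to 35204808. Levels are given in CPM, the count of a gene scaled to library size after TMM normalisation, and the levels of different genes were compared per kilobase of exon. Counting intervals, where given, cover counting error only. In whole animals, fewer cells of a type and less RNA per cell cannot be told apart. The anti-aggregate library of the nth-1 background held more nth-1 transcript than the other 2 and so partly went against its label, so results that rest on it are given with and without it. The sums of the sperm, muscle, cuticle and oocyte markers each set the same 4 libraries apart. Those of the germline, intestine and neuron markers did not. In nth-1 without tau and with aggregate tau, the 13 sperm genes summed to 691 and 783 CPM and the 8 muscle genes to 8239 and 8394 CPM. On the wild-type backgrounds with aggregate tau, the same sums were 152 and 179 CPM for sperm and 2639 and 3162 CPM for muscle, at 22 °C and 20 °C. In the other 8 libraries they lay between 27.7 and 65.7 CPM and between 673 and 1812 CPM. Of the 10 markers of zygotic transcription in embryos, med-2 was at 0 in every library and the sum did not pass 3.44 CPM.

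**Figure D1:**
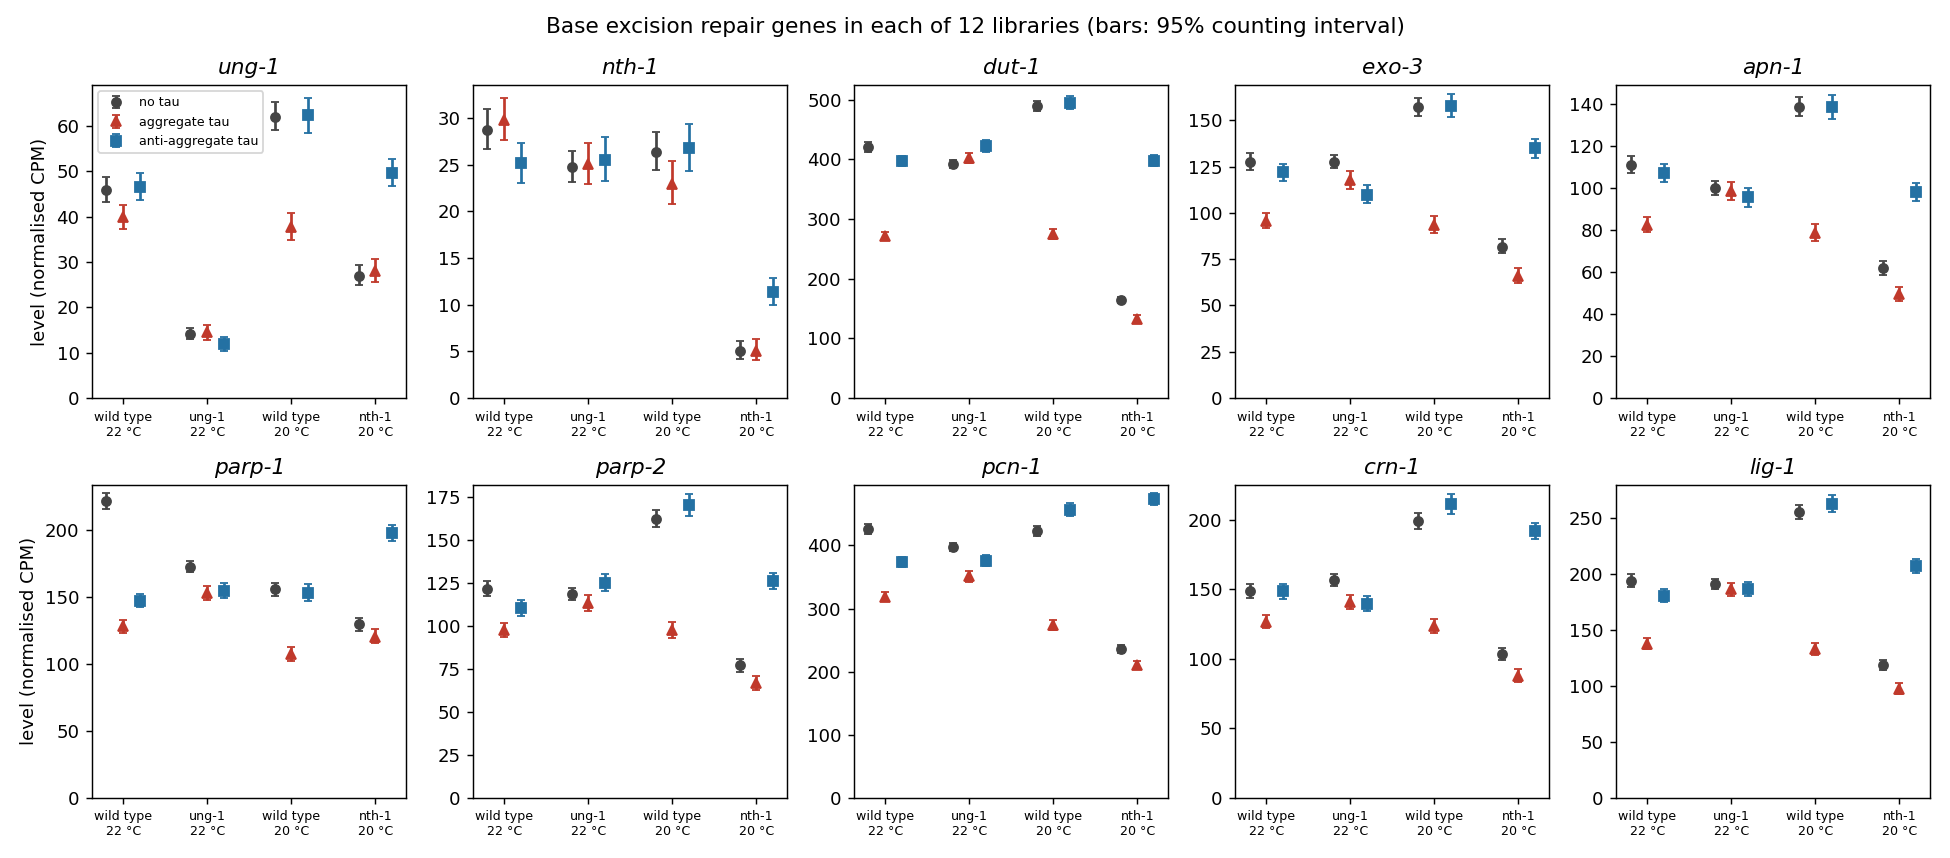
Level of each of the 10 genes (vertical axes, TMM-normalised CPM from 0) in the 12 libraries, grouped by background along the horizontal axis and marked by tau state, 1 point per library with its 95% counting interval. The ung-1 gene sits between 11.9 and 14.5 CPM in the ung-1 libraries, and nth-1 is at 5.06 and 5.08 CPM in 2 nth-1 libraries and at 11.35 CPM in the one with anti-aggregate tau.

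The glycosylase UNG-1 removes uracil from DNA. Its gene (Y56A3A.29, chromosome III, 11971467-11974096, minus strand of WBcel235, 1012 bases of exon) overlapped no annotated gene. At 22 °C it stood at 45.9 CPM in the wild type, 39.9 with aggregate tau and 46.6 with anti-aggregate tau. In the ung-1 libraries the same tau states gave 14.1, 14.5 and 11.9 CPM, so the 3 mutant libraries lay below the 3 wild-type ones and kept 30.8%, 36.3% and 25.5% of the matched level. At 20 °C ung-1 stood at 62.1, 37.7 and 62.3 CPM on the wild-type background and at 27.01, 28.0 and 49.6 CPM on the nth-1 background. The highest values were the 2 wild-type libraries at 20 °C without aggregate tau, and the 3 ung-1 mutant libraries were the lowest of the 12.

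NTH-1 excises oxidised pyrimidines and also nicks the strand it has cleared. Its gene (R10E4.5, chromosome III, 4291543-4294253, minus strand, 1878 bases of exon) shares 591 exon bases with R10E4.6 on the other strand, which had 40 to 95 counts per library, and the use of strand in counting is not stated. At 22 °C nth-1 stood at 28.7, 29.8 and 25.1 CPM on the wild-type background and at 24.8, 25.04 and 25.5 CPM in the ung-1 libraries, in the order no tau, aggregate and anti-aggregate tau. At 20 °C the wild-type background gave 26.4, 23.0 and 26.8 CPM. The 9 libraries with a wild-type nth-1 gene thus spanned 23.0 to 29.8 CPM, with no clear order by tau state. In the nth-1 mutants the level was 5.06 CPM (95% counting interval 4.17 to 6.09) without tau, 5.08 CPM (4.04 to 6.31) with aggregate tau and 11.35 CPM (9.97 to 12.9) with anti-aggregate tau. That is 19.2%, 22.1% and 42.4% of the matched wild type, and the interval of the third library lies apart from those of the other two.

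The dUTPase DUT-1 keeps dUTP, and with it uracil, out of new DNA. Its gene (K07A1.2, chromosome I, 9585417-9587203, plus strand, 1549 bases of exon, 56 of them shared with the weakly counted K07A1.3 on the minus strand) had the largest spread of the 8. At 22 °C it stood at 421, 271 and 397 CPM on the wild-type background and at 391.6, 402 and 422 CPM in ung-1, again in the order no tau, aggregate and anti-aggregate tau. At 20 °C it stood at 489, 275 and 495 CPM on the wild-type background and at 164, 133 and 398 CPM in nth-1. The wild-type backgrounds were low with aggregate tau, the ung-1 background was flat, and the nth-1 background was low in 2 of its 3 libraries.

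The AP endonucleases had the same 4 lowest libraries as dut-1, in a slightly different order. The exonuclease III type enzyme is encoded by exo-3 (R09B3.1, chromosome I, 11907525-11909280, minus strand), and the endonuclease IV type by apn-1 (T05H10.2, chromosome II, 8047564-8049063, plus strand). At 22 °C exo-3 stood at 128, 95.6 and 122 CPM on the wild-type background and at 128, 118 and 110 CPM in ung-1; at 20 °C it stood at 157, 93.5 and 158 CPM on the wild-type background and at 81.8, 65.9 and 135 CPM in nth-1. At 22 °C apn-1 stood at 111, 82.5 and 107 CPM on the wild-type background and at 99.8, 98.3 and 95.5 CPM in ung-1; at 20 °C it stood at 139, 78.6 and 138 CPM on the wild-type background and at 61.7, 49.5 and 97.9 CPM in nth-1. For both genes the lowest library was nth-1 with aggregate tau, and the highest values were the 2 wild-type libraries at 20 °C without aggregate tau.

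The 2 poly(ADP-ribose) polymerases differed in their pattern. The gene parp-2 (E02H1.4, chromosome II, 9593037-9595128, plus strand) stood at 121, 97.7 and 110 CPM on the wild-type background at 22 °C, at 118.5, 113 and 125 CPM in ung-1, at 162, 97.4 and 170 CPM on the wild-type background at 20 °C and at 77.1, 66.5 and 126 CPM in nth-1. Its 4 lowest libraries came in the same order as those of the AP endonucleases. The gene parp-1 (Y71F9AL.18, chromosome I, 2907725-2925529, minus strand) stood at 221, 128 and 147 CPM on the wild-type background at 22 °C, at 172, 153 and 155 CPM in ung-1, at 156, 107 and 153 CPM on the wild-type background at 20 °C and at 129, 120.3 and 198 CPM in nth-1. Its highest library was the wild type at 22 °C and its second highest the nth-1 library with anti-aggregate tau, and its lowest was the wild-type background at 20 °C with aggregate tau. It shares 110 exon bases with Y71F9AL.1 and 33 with pph-7 on the other strand, with medians of 834 and 405.5 counts per library, so its values are less certain.

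The genes of the last steps of repair had these 4 lowest libraries as well. The PCNA gene pcn-1 (W03D2.4, chromosome IV, 4047937-4049448, minus strand) stood at 426, 319 and 374 CPM on the wild-type background at 22 °C, at 398, 351 and 376 CPM in ung-1, at 423, 274 and 457 CPM on the wild-type background at 20 °C and at 236, 210.4 and 473 CPM in nth-1. Its highest library was the nth-1 mutant with anti-aggregate tau and its lowest the nth-1 mutant with aggregate tau. The gene crn-1 (Y47G6A.8, chromosome I, 3481997-3484500, plus strand), for the FEN1-like flap nuclease, stood between 126.8 and 157 CPM in the 6 libraries at 22 °C, at 199, 124 and 212 CPM on the wild-type background at 20 °C and at 104, 87.9 and 192 CPM in nth-1. The DNA ligase I gene lig-1 (C29A12.3, chromosome V, 10814106-10816718, plus strand) stood at 194, 138 and 181 CPM on the wild-type background at 22 °C, at 191, 187 and 187 CPM in ung-1, at 255, 133 and 263 CPM on the wild-type background at 20 °C and at 118.7, 97.4 and 207 CPM in nth-1. For crn-1 and lig-1 the nth-1 library with aggregate tau was the lowest and the wild-type background at 20 °C with anti-aggregate tau the highest.

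Seen over all 12 libraries, the same 4 libraries were the 4 lowest for each of the 8 genes outside the glycosylases. They were nth-1 without tau, nth-1 with aggregate tau and the 2 wild-type backgrounds with aggregate tau, and for exo-3 they held at most 95.6 CPM against at least 110 CPM elsewhere. This grouping was seen in the values and carries no test; 16.3% of all 15245 genes tested had the same 4 libraries lowest. Each glycosylase gene had its 3 lowest libraries in its own mutant, so neither could show it over all 12. Outside its own mutant libraries, ung-1 was lowest in the same 4, at 27.01 to 39.89 CPM against at least 45.9 CPM in the rest. The share of all genes that do so with the ung-1 mutant libraries left out was not counted, so this is no result about ung-1. The nth-1 gene did not follow the grouping: its highest library, at 29.79 CPM, was 1 of the 4, the wild type at 22 °C with aggregate tau.

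**Figure D2:**
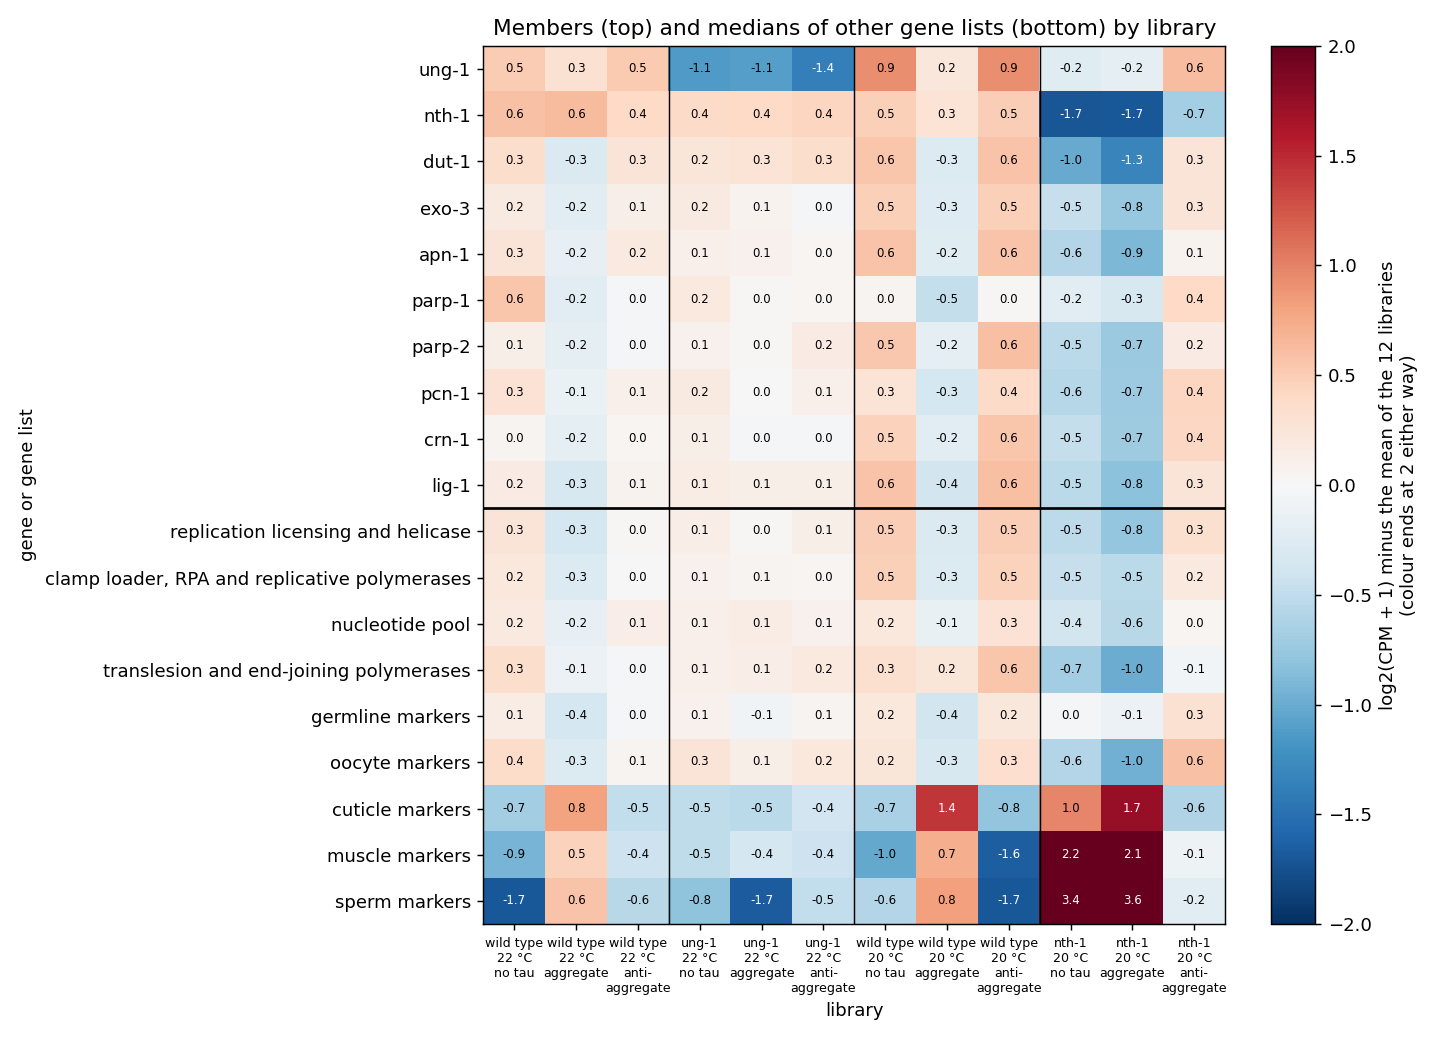
Level of each of the 10 genes (upper block) and median level of 9 other gene lists (lower block) in each library, as log2(CPM + 1) minus the mean of the 12 libraries, with blue below and red above that mean. The 8 genes outside the glycosylases are blue in the same 4 columns as the replication lists, and the cuticle, muscle and sperm lists are red there.

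Per kilobase of exon, the clamp gene pcn-1 was the most abundant, at 363 ± 85.6 CPM per kb (SD over the 12 libraries), followed by dut-1 at 229 ± 76.1. Each of them exceeded the next gene in 12 of 12 libraries. The nuclease gene crn-1 (113 ± 28.4) and exo-3 (112 ± 27.2) could not be ordered, since crn-1 was above exo-3 in 6 of 12 libraries. Below them came apn-1 (78.0 ± 21.5), lig-1 (74.0 ± 20.9), parp-2 (62.1 ± 16.2), parp-1 (49.4 ± 10.4) and ung-1 (36.2 ± 17.5). Of these neighbours, apn-1 was above lig-1 in 10 libraries, lig-1 above parp-2 in 12, and parp-2 above parp-1 and parp-1 above ung-1 in 9 each (for the latter, 3 of the 9 were ung-1 mutants), and the means of these neighbours differed by less than the larger SD of each pair. The glycosylase gene nth-1 was the scarcest, at 11.4 ± 4.73 CPM per kb, and ung-1 exceeded it in 11 of 12 libraries. These means include the mutant libraries of each glycosylase. In the 6 libraries of wild-type background ung-1 (48.5 ± 10.6 CPM per kb) and parp-1 (49.0 ± 12.4) could not be ordered: parp-1 was above ung-1 in 3 of 6, those at 22 °C, and ung-1 was above parp-1 in the 3 at 20 °C. There nth-1, at 14.2 ± 1.31 CPM per kb, was below each of the other 9 genes by its mean.

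**Figure D3:**
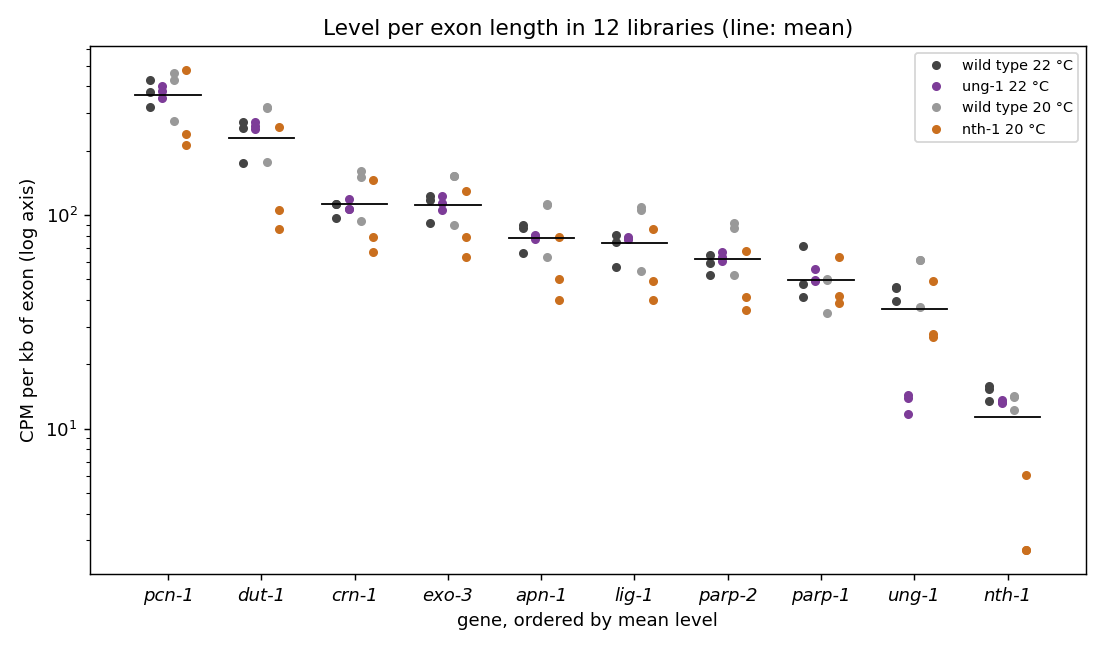
Level per exon length (log axis, CPM per kb) of the 10 genes, ordered by their mean over the 12 libraries (line), with 1 point per library coloured by background. From pcn-1 at a mean of 363 to nth-1 at a mean of 11.4 CPM per kb, the neighbours crn-1 and exo-3 overlap fully.

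The comparison of ung-1 mutants with the wild type at 22 °C asked what loss of the uracil glycosylase does to expression. Among the repair genes the ung-1 transcript itself was lower, by a log2 fold change of -1.69 (SE 0.26, 95% interval -2.28 to -1.09), or 3.223-fold. The other 9 stayed between -0.16 for nth-1 and 0.21 for dut-1. No gene of the whole set passed (0 of 10 here against 0% of all genes tested; edgeR's quasi-likelihood test, adjusted p = 1 for each of the 10 after Benjamini-Hochberg correction). At an unadjusted p under 0.05, ung-1 was the 1 gene of the 10 against 1.05% of all genes, and ung-1 was also the 1 of the 10 whose mutant libraries lay wholly below the wild-type ones, against 2.87% of all genes. DESeq2 called ung-1 (adjusted p = 8.1e-05) among 5 genes in all, and limma voom called 0 of the 10. The intervals of the other repair genes ranged from -0.83 at the lowest to 0.85 at the highest, so a change in either direction within those limits could not be told from none.

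The ung-1 background was not the same in each tau state. Of the 8 genes outside the glycosylases, 6 were lower in ung-1 than in the wild type without tau (median log2 ratio -0.07), 8 were higher with aggregate tau (median 0.26, from 0.14 for pcn-1 to 0.57 for dut-1) and 5 were higher with anti-aggregate tau (median 0.03). Each of these is 1 library over 1 library. The medians of all genes tested in the same pairs were 0.03, -0.02 and -0.004, and 44.7%, 50.6% and 50.5% of them were lower.

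The comparison of nth-1 mutants with the wild type at 20 °C asked the same of the pyrimidine glycosylase. The nth-1 transcript was 3.66-fold lower, with a log2 fold change of -1.87 (SE 0.31, 95% interval -2.57 to -1.17; adjusted p = 0.0692 by edgeR's quasi-likelihood test). Of the other 9 genes, 8 also had negative values, from -0.36 (pcn-1) to -0.93 (dut-1), and parp-1 was at 0.11. None passed the threshold (0 of 10 against 0% of all genes), and apn-1 at -0.77 (SE 0.21, adjusted p = 0.0692) and parp-2 at -0.68 (SE 0.19, adjusted p = 0.0731) came nearest after nth-1. At an unadjusted p under 0.05, 8 of the 10 were lower, against 16.1% of all genes tested being lower and 20.4% higher by that rule. The 2 exceptions were parp-1 and pcn-1. Only nth-1 had mutant libraries wholly below the wild-type ones, against 8.38% of all genes. The median over the 8 genes outside the glycosylases was -0.58 where the median of all genes was 0.17, or 0.06 over genes at 5 CPM or more in 3 libraries. DESeq2 called nth-1, dut-1, apn-1 and parp-2 lower, with 28% of all genes called, and limma voom called nth-1 and apn-1 lower, with 9.09% called.

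The absence of calls depended on the processing and on single libraries, and nth-1 and apn-1 were each called in 7 of 19 alternatives. The direction of 9 of the 10 genes, all but parp-1, was negative in 19 of 19 alternatives. Without the anti-aggregate library labelled nth-1, 9 of the 10 genes fell in the nth-1 mutants, all but parp-1, with 34.9% of all genes called and 16.4% called lower. The log2 fold changes by the same edgeR test were then -2.33 for nth-1 (SE 0.23, adjusted p = 0.00528), -1.39 for dut-1 (adjusted p = 0.00826), -1.01 for apn-1 (adjusted p = 0.012) and -0.93 for ung-1 (adjusted p = 0.0269). That library was set aside for its high nth-1 level, so the fall of nth-1 in this fit is no independent test. The other 9 genes were also higher in that library than in the rest of the nth-1 libraries. Their lower values in this fit are therefore not independent of that choice either. The other 5 lay between -0.71 for pcn-1 and -0.91 for parp-2, and parp-1 was at -0.13. In single pairs, the 8 genes outside the glycosylases had a median log2 ratio of -1.01 without tau (8 of 8 lower), -0.50 with aggregate tau (7 of 8 lower) and -0.27 with anti-aggregate tau (6 of 8 lower). The same 3 pairs gave medians of 0.40, 0.05 and 0.05 over all genes tested, and 41.4%, 47.5% and 44.9% of them were lower.

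**Figure D4:**
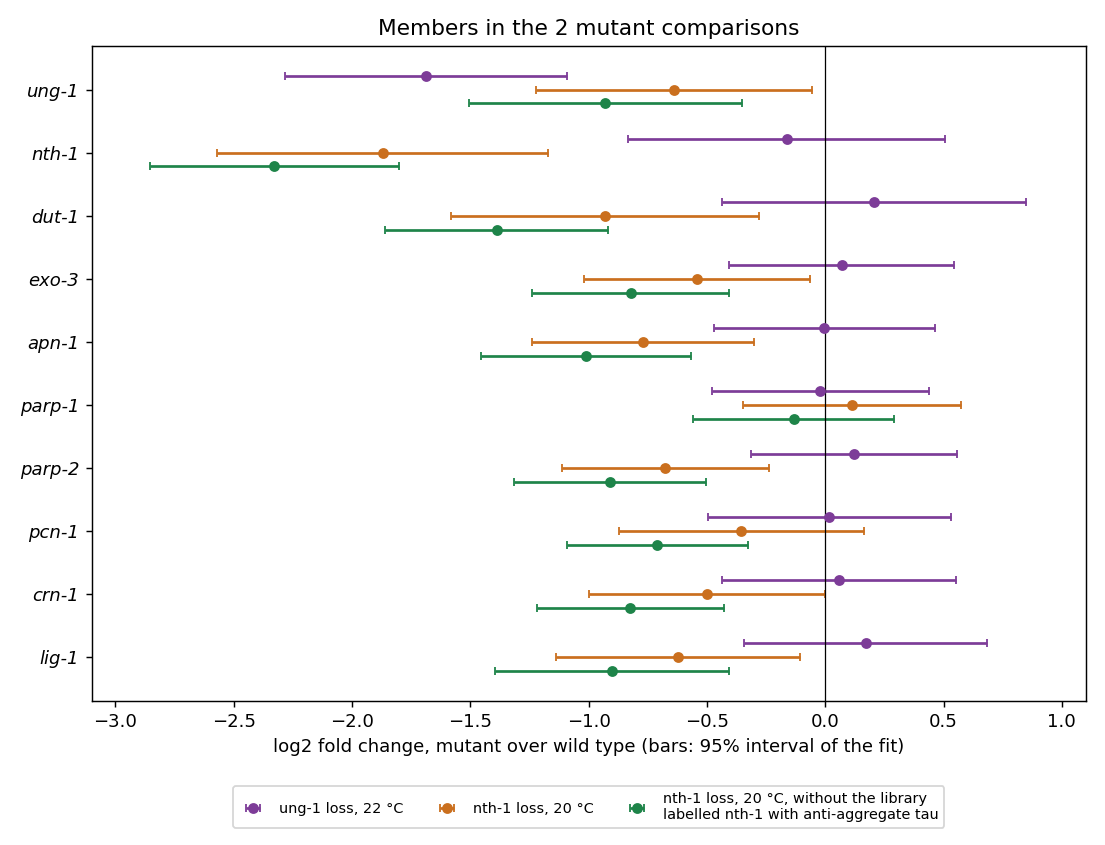
Log2 fold change of each of the 10 genes in the ung-1 and nth-1 comparisons and in the nth-1 comparison without 1 library (horizontal axis), with the 95% interval of the edgeR fit. The intervals of 9 genes lie wholly below 0 in the third set, and in the ung-1 comparison that holds for ung-1 alone. The library left out in the third set was chosen by its nth-1 level, so its value for nth-1 is no independent test. The other genes were also higher in that library than in the rest of the nth-1 libraries, so their values depend on that choice too.

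Set against each other, the nth-1 effect minus the ung-1 effect was -1.71 (95% interval -2.67 to -0.75) for nth-1 and 1.05 (0.23 to 1.87) for ung-1. For the 8 others this difference had a median of -0.69, from -1.14 for dut-1 to 0.13 for parp-1, against 0.19 over all genes. It passed for 0 of 10 genes, as for 0% of all genes (lowest adjusted p = 0.259, edgeR quasi-likelihood test), and 6 of the 10 had an unadjusted p under 0.05, against 18.4% of all genes. Without the anti-aggregate library labelled nth-1, nth-1, dut-1 and parp-2 passed, each with a lower value in the nth-1 comparison, where 6.26% of all genes passed. For nth-1 itself this is no independent test, since that library was left out for its nth-1 level. The genes dut-1 and parp-2 were also higher in that library than in the rest of the nth-1 libraries, so their passes depend on that choice too. Temperature cannot be told apart from the mutated gene in this difference. Between the 2 temperatures on the wild-type background no repair gene passed (0 of 10 against 0% of all genes, lowest adjusted p = 0.668, edgeR quasi-likelihood test), 0 of the 10 had an unadjusted p under 0.05 against 7.52% of all genes, and DESeq2 and limma voom called 0. The values ran from -0.35 for parp-2 to 0.25 for parp-1.

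Marker lists of other tissues were read in the nth-1 comparison as well, where 0 of their genes passed with all 12 libraries. The log2 fold change had a median of 3.75 over the 13 sperm markers, 2.12 over the 8 muscle markers, 1.33 over the 9 cuticle markers, -0.35 over the 13 oocyte markers, 0.10 over the 20 germline markers and 1.33 over the 8 tested neuron markers. Once the anti-aggregate library labelled nth-1 was left out, these medians were 4.33, 2.56, 1.76, -0.79, -0.0047 and 1.78. In that setting 12 of 13 oocyte markers fell, while 8 of 8 muscle, 6 of 13 sperm and 5 of 8 neuron markers rose. Of the sperm markers 1 fell, 1 of 9 cuticle markers rose, and of 20 germline markers 3 fell and 1 rose. The 8 intestine markers had a median of 0.11 and 0 were called. Among all genes 16.4% fell and 18.5% rose. The oocyte markers summed to 7276 and 5804 CPM in nth-1 without tau and with aggregate tau, to 15840 CPM in the anti-aggregate library labelled nth-1 and to 8908 to 13520 CPM in the wild-type libraries at 20 °C. The germline markers summed to 4980, 4708 and 6561 CPM in the nth-1 libraries and to 5746, 3788 and 5802 CPM on the wild-type background at 20 °C. The part of these shifts in the repair genes was not tested.

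The comparison of aggregate tau with no tau asked whether neurons burdened with aggregating tau come with other repair gene levels in the whole animal. Over the 4 backgrounds the 10 genes had negative log2 fold changes, from -0.03 for nth-1 to -0.43 for dut-1, with a median over the 8 outside the glycosylases of -0.39 against 0.26 for all genes and -0.05 for genes at 5 CPM or more in 3 libraries. None passed (0 of 10 against 0% of all genes; lowest adjusted p = 0.363 by edgeR's quasi-likelihood test), 1 of the 10, parp-1, had an unadjusted p under 0.05 against 12.3% of all genes, and DESeq2 and limma voom called 0. The ratios are given here by background; the difference between mutant and wild-type backgrounds passed for 0 of 10 genes (interaction, lowest adjusted p = 0.447, edgeR quasi-likelihood test). On the wild-type backgrounds the 8 genes were lower in 8 of 8 cases at both temperatures, with medians of -0.42 at 22 °C and -0.74 at 20 °C, where all genes had medians of 0.27 and 0.50. In nth-1 they were lower in 8 of 8 cases with a median of -0.26, and in ung-1 in 7 of 8 with a median of -0.09, where all genes had medians of -0.00055 and -0.02. Of all genes, 41.8% and 39.3% were lower in the wild-type pairs at 22 °C and 20 °C, 50.1% in nth-1 and 52% in ung-1. In the fit for the wild-type backgrounds the median of all genes was 0.46, but -0.12 for genes at 5 CPM or more in 3 libraries.

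**Figure D5:**
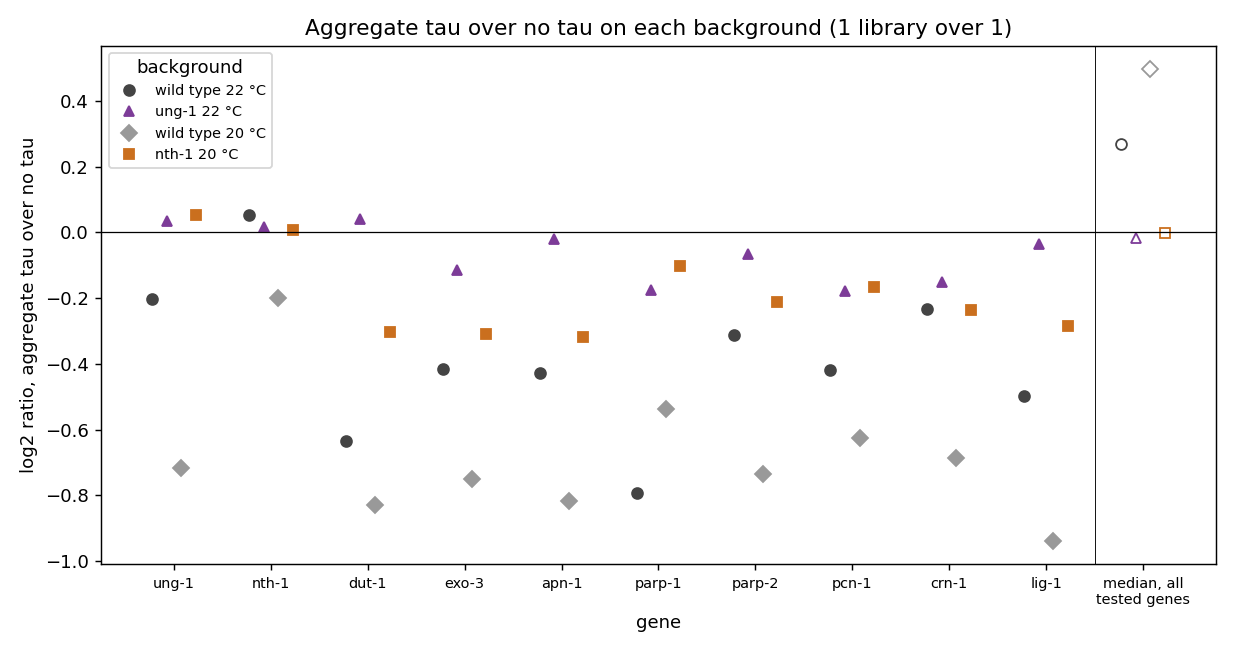
Log2 ratio of aggregate tau over no tau (vertical axis) for each of the 10 genes on each of 4 backgrounds, 1 library over 1 library, with the median of all tested genes as open symbols at the right. The 8 genes from dut-1 to lig-1 are lowest on a wild-type background, down to -0.94 for lig-1 at 20 °C, and lie closest to 0 in ung-1 for most of them.

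Read on the wild-type backgrounds alone (2 libraries against 2), the log2 fold changes of the 8 genes lay between -0.45 for crn-1 and -0.73 for dut-1, beside -0.45 for ung-1 and -0.07 for nth-1. The ligase lig-1 was at -0.71 (SE 0.27) and parp-1 at -0.67 (SE 0.22), the latter with the lowest adjusted p of the 10 (0.1205, edgeR quasi-likelihood test). None passed (0 of 10 against 1.51% of all genes), 3 of the 10 were lower at an unadjusted p under 0.05 against 15.1% of all genes, DESeq2 called parp-1 and limma voom called 0. Without the anti-aggregate library labelled nth-1, whose background enters the same estimate of spread, the 8 genes outside the glycosylases fell, where 36.2% of all genes were called and 17.3% were called lower; the log2 fold changes themselves stayed between -0.45 and -0.73. Without the ung-1 library with anti-aggregate tau 5 of the 10 fell, where 31.3% of all genes were called. The cuticle, sperm and muscle markers had medians of 2.76, 3.09 and 1.62 in this comparison, the 20 germline markers -0.62 with 20 of 20 negative, and the 13 oocyte markers -0.66 with 13 of 13 negative. With all 12 libraries 1 gene of these lists passed, the sperm regulator spe-44 (log2 fold change 1.36, SE 0.22, adjusted p = 0.0399 by edgeR's quasi-likelihood test). With the anti-aggregate library labelled nth-1 left out, 17 of 20 germline and 10 of 13 oocyte markers fell, and 8 of 8 muscle and 8 of 9 cuticle markers rose. There 3 of 8 intestine markers fell, and 4 of 8 neuron and 1 of 13 sperm markers rose. Among all genes 17.3% fell and 19% rose. The part of the marker shifts in the repair genes was not tested.

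Whether loss of a glycosylase changed the response to aggregate tau was read from the interaction. It was positive for 10 of 10 repair genes, from 0.08 for nth-1 to 0.62 for dut-1, against a median of -0.33 for all genes (0.12 over the genes left by a filter at 5 CPM in 3 libraries), but 0 of 10 passed, against 0.0131% of all genes (lowest adjusted p = 0.447, edgeR quasi-likelihood test). None of the 10 had an unadjusted p under 0.05, against 11.7% of all genes, and DESeq2 and limma voom called 0. Within the aggregate strain, loss of a glycosylase left the 8 others between -0.21 for dut-1 and 0.22 for parp-1. There ung-1 was at -0.95 (SE 0.33) and nth-1 at -1.20 (SE 0.35), each an average over 1 pair that carries the mutation and 1 that does not, and 0 of 10 passed against 0.984% of all genes (adjusted p = 0.348 and 0.255 for these genes, edgeR quasi-likelihood test). At an unadjusted p under 0.05 they were the 2 of the 10 that were lower, against 7.37% of all genes; DESeq2 called nth-1 and limma voom called 0. Without the anti-aggregate library labelled nth-1, the nth-1 gene passed (3.13% of all genes called), and without the ung-1 library with anti-aggregate tau, ung-1 and nth-1 passed (3.33%). The former library was left out for its nth-1 level, so that pass of nth-1 is no independent test. Of the marker and pathway lists, 1 gene passed within the aggregate strain with all 12 libraries. The sperm regulator spe-44 was lower there with loss of a glycosylase (log2 fold change -1.58, SE 0.22, adjusted p = 0.0279 by edgeR's quasi-likelihood test).

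Anti-aggregate tau, compared with the same no-tau libraries, gave positive values for 9 of the 10 genes, up to 0.35 for dut-1, with parp-1 at -0.04. None passed (0 of 10 against 0% of all genes; adjusted p = 0.997 for each, edgeR quasi-likelihood test), 0 of the 10 had an unadjusted p under 0.05 against 1.66% of all genes, and DESeq2 and limma voom called 0. Most of the size of the positive values came from 1 pair. Without the anti-aggregate library labelled nth-1, dut-1 (0.03) and parp-2 (0.02) stayed positive and the rest of the 10 were negative, down to -0.21 for parp-1. In nth-1 the 8 genes outside the glycosylases were higher with anti-aggregate tau than without tau in 8 of 8 cases, with a median log2 ratio of 0.76, while the other 3 backgrounds gave medians of -0.09, -0.07 and 0.03. Of all genes tested, 56.5% were lower in the nth-1 pair. That pair holds the library that partly went against its label.

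Other genes of the pathway were read by lists of poly(ADP-ribose) turnover, clamp loading and replicative polymerases, translesion polymerases, nucleotide pool enzymes and replication licensing. In the main nth-1 comparison 0 genes of these lists passed. Of 13 tested genes for clamp loading, the single-strand binding protein RPA and replicative polymerases, 12 had negative values (median -0.50), as had 18 of 19 genes for replication licensing (median -0.55) and 5 of 5 translesion and end-joining polymerases (median -0.79). The nucleotide pool list was mixed, with 6 of 9 negative and a median of -0.15. Of 3 tested genes of poly(ADP-ribose) turnover, the glycohydrolase gene parg-1 was at -0.41, parg-2 at 0.74 and the tankyrase gene tank-1 at 0.91. The median of all genes was 0.17.

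Without the anti-aggregate library labelled nth-1, a setting added after the data were seen, 15 of 19 licensing genes, 9 of 13 clamp and polymerase genes and 5 of 5 translesion polymerases fell and 0 rose, where 16.4% of all genes fell and 18.5% rose. Among them were psf-1 of the GINS complex (log2 fold change -1.39), orc-4 of the origin recognition complex (-1.28), the clamp loader subunit rfc-3 (-1.21) and the end-joining polymerase polq-1 (-1.13). In the nucleotide pool list 5 of 9 fell and 3 rose. Those that fell were tyms-1 for thymidylate synthase (-1.72), rnr-2 for the small subunit of ribonucleotide reductase (-1.68), dhfr-1 for dihydrofolate reductase (-1.30), ndx-4 (-0.79) and rnr-1 (-0.51), beside the fall of dut-1. Those that rose were ndx-2 (2.05), ndx-1 (1.98) and mel-32 (0.48). The Nudix hydrolase genes (ndx) thus went both ways. In poly(ADP-ribose) turnover tank-1 rose (1.00) and parg-1 fell (-0.70). In that setting the lists of the wild-type aggregate comparison gave 17 of 19 licensing genes and 11 of 13 clamp and polymerase genes that fell, where 17.3% of all genes fell. Of the nucleotide pool list 5 of 9 fell, and of the 5 translesion polymerases polk-1 fell (-0.74) and polh-1 rose (0.49). In the same setting 17 of 20 germline and 10 of 13 oocyte markers fell. There parg-2, a second poly(ADP-ribose) glycohydrolase gene, rose: it stood at 28.3 and 19.5 CPM with aggregate tau on the wild-type backgrounds at 22 °C and 20 °C and between 0.315 and 8.18 CPM in the other 10 libraries.

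The genes beside the 2 glycosylase genes were read because a mutation can reach into a neighbour. Overlapping genes were not taken, so the fold change of R10E4.6, which overlaps nth-1, is not given. The 6 tested genes nearest to ung-1, from Y56A3A.7 to wah-1, had log2 fold changes between -0.07 and 0.21 in the ung-1 comparison, including Y56A3A.30, 31 bases away. Near nth-1, the licensing helicase gene mcm-5, 276 bases away, was at -0.40 (SE 0.24), sup-26 at 0.39, R10E4.11 at -0.29 and R10E4.9 at -0.42. R10E4.7, 558 bases away, was at 2.05 (SE 0.51) and R10E4.3 at 2.36 (SE 0.63), both with an adjusted p of 0.0692 by edgeR's quasi-likelihood test. R10E4.7 stood at 31.3 and 29.5 CPM in nth-1 without tau and with aggregate tau, at 5.67 CPM in the anti-aggregate library labelled nth-1 and between 2.44 and 7.32 CPM elsewhere. R10E4.3 was scarce, at 4.20, 4.52 and 0.79 CPM in the same libraries and between 0.37 and 1.46 CPM elsewhere. Both were higher at an unadjusted p under 0.05 (edgeR quasi-likelihood test), as were 20.4% of all genes. Whether their place beside nth-1 matters was not tested.

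By likeness of pattern, given as Pearson's r of log2(CPM + 0.5) over the 12 libraries among 8882 genes whose mean was 5 CPM or more, the mean of the 8 genes outside the glycosylases was followed most closely by drsh-1 (r = 0.998), chaf-1 (0.996) and C06A5.3 (0.996). Here drsh-1 encodes the microRNA-processing nuclease Drosha and chaf-1 a subunit of the chromatin assembly factor that loads histones at replication. The genes most like nth-1 were ate-1 (0.991), Y104H12D.2 (0.986) and T05G5.5 (0.981), and those most like ung-1 were ZK1127.6 (0.871), Y54F10AM.11 (0.797) and shw-1 (0.772). These libraries share backgrounds, temperature and tau strains, so the values describe the 12 libraries only.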

How the data were processed

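The authors deposited 1 table of raw read counts per gene for each of 12 libraries, per the labels; HISAT2, edgeR 3.22.5 and the build WBcel235 are named in the submitters' processing notes. Not given in the sources used here are the counting program, its strand setting and the version of the aligner. Titles of 3 libraries at 20 °C read ung-1 although their genotype labels read nth-1; libraries were grouped by genotype. Names and positions came from the Ensembl 115 annotation of that build, which matched 46180 of 46589 identifiers.

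Counts were tested with edgeR 4.0.16 (R 4.3.3) (quasi-likelihood test), with TMM scaling and filterByExpr at its defaults, which kept 15245 genes, with Benjamini-Hochberg adjustment over all of them at 0.05. Background and tau state entered 1 fit (6 residual degrees of freedom); comparisons on wild-type backgrounds, within aggregate tau and of the interaction used a fit with glycosylase loss by tau state (4 degrees). Log2 ratios of single libraries used a prior count of 2; counting intervals are exact Poisson intervals. Tests were tried on simulated counts. Library totals give each repair gene at least 82 counts.

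The members, lists and comparisons were chosen with earlier results of these data known, so patterns shown earlier are no independent support. Named are the 10 members, the list genes past the threshold (at most 4 per list and comparison), the 3 tested genes on each side of ung-1 and nth-1 and the 3 genes most alike in pattern; tank-1, parg-1, parg-2, R10E4.6 and the genes named from the fit without 1 library were named after their values were seen. Alternatives were RLE factors, total-count scaling, other filters, DESeq2 1.42.0, limma voom (limma 3.58.1), libraries of 1 temperature and leaving out each library. Of the list names, 11 matched no annotated name and were not used.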

Additional observations from a re-analysis of the deposited data

How the results depend on the processing

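No paired analysis was possible because the labels give no replicate numbers to pair on; each combination had 1 library, and the fit already matched mutants by tau state and tau states by background. Members called in the ung-1 comparison went from 0 to 1 with DESeq2. In the nth-1 comparison 0 became 3 (all lower) with total-count scaling, with a filter at 5 CPM in 3 libraries and with the 20 °C libraries alone, 4 with DESeq2, 2 with limma voom, and 0 to 9 when libraries were left out in turn. The difference of the mutants gave 1 with DESeq2 and 0 to 3 by leaving out libraries, aggregate tau on the wild-type backgrounds 1 and 0 to 8, and glycosylase loss within aggregate tau 1 and 0 to 2. The temperature, 2 tau-state and interaction comparisons stayed at 0 in each alternative run. Single libraries that moved the calls were 3 in number. Without nth-1 with anti-aggregate tau 9, 3, 8 and 1 genes were called (nth-1, difference, wild-type aggregate, loss within aggregate); leaving out the anti-aggregate ung-1 library gave 5 and 2 in the last 2 of these; without ung-1 with aggregate tau 2 in the nth-1 comparison. Of all genes, 34.9%, 6.26%, 36.2% and 3.13% were called in the same comparisons without nth-1 with anti-aggregate tau. With all 12 libraries those shares were 0%, 0%, 1.51% and 0.984%. For the other counts of this paragraph the share of all genes is not set beside them, so they are no result about the members. The causes were not tested. The log2 fold change of ung-1 in its comparison ranged from -1.91 to -1.53 and that of nth-1 in its own from -2.33 to -1.59. Total-count scaling moved the median of all genes by 0.20, -0.23 and -0.26 in the wild-type aggregate, within-aggregate and interaction comparisons; a filter at 5 CPM moved it by -0.58 in the first and by 0.46 in the last, to -0.12 and 0.12. Neither depth nor the number of libraries was tested as a limit.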
